A study of Mus musculus with 6 samples.

Results

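The genes described here are the Wnt ligands, their receptors, the secreted proteins that strengthen or block them, and the core of the beta-catenin branch inside the cell. They were chosen by symbol from the deposited table: every *Wnt*, *Fzd*, *Sfrp*, *Dkk* and *Rspo* gene followed by a number, together with *Lrp5*, *Lrp6*, *Wif1*, *Axin1*, *Axin2*, *Apc*, *Ctnnb1*, *Lef1*, *Tcf7*, *Tcf7l1* and *Tcf7l2*. The rule matched 52 of 20280 genes and used no measured value, but was set with earlier results of these data known. RNA-seq was made from FVB/N mouse embryos at E8.5, as 3 libraries of wildtype embryos (*Tip55*+/+) and 3 of *Tip55* knockout embryos (*Tip55*Δ/Δ). Both came from intercrosses of heterozygotes. The *Tip55*Δ allele joins neighbouring exons of *Kat5* near its 3′ end and removes the introns between them, one of which encodes the end of the TIP55 protein, so the other KAT5 isoforms remain in the knockout. Embryos of the knockout looked normal at this stage. Whether a library holds 1 embryo or a pool is not stated.

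Wnt proteins are secreted lipid-modified signals that bind Frizzled receptors together with the coreceptors LRP5 and LRP6. In the beta-catenin branch, receptor binding inhibits the complex of Axin and APC that marks beta-catenin for destruction. Beta-catenin then enters the nucleus and acts with TCF and LEF factors on target genes. At the stage studied here the embryo is elongating from the tail bud, where Wnt signals maintain the cells that form presomitic mesoderm and spinal cord. Other Wnt genes are known from the dorsal neural tube, the midbrain, the surface ectoderm and the limb and body wall.

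All values are means of normalized counts per library over the 3 libraries of a genotype, solved from the deposited table of 1 comparison, in which no library has a value of its own. How far the libraries of a genotype differ could thus not be measured here. The posterior probabilities in that table hold the study's own calls and were not used, so no test between genotypes is given. Each ratio is *Tip55*Δ/Δ over *Tip55*+/+ with a 95% Clopper-Pearson interval, computed on each genotype's 3 libraries added together, which covers counting error only. The interval treats normalized counts as if they were read counts, so even the counting error is approximate. A gene is called past the fold here when its ratio was at least 1.5, or at most the inverse of that, and the interval left out 1. Genes with a mean of at least 10 in either genotype were kept, 15924 in all. In whole embryos a lower mean from fewer cells of a type and one from less RNA per cell cannot be told apart. *Kat5* had means of 2218 and 1615 normalized counts (ratio 0.728, interval 0.702 to 0.756), summed over its isoforms, which says nothing on *Tip55* alone. Which isoforms the lower count came from cannot be told from these values. The defining markers of the embryo proper that were listed (*T*, *Sox2*, *Nkx2-5*, *Tnnt2* and *Meox1*) were present in both genotypes, with summed means of 15051 and 16838. Their ratios went both ways, with *T* at 1.61, *Tnnt2* at 1.57, *Sox2* at 1.02, *Meox1* at 0.77 and *Nkx2-5* at 0.695.

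Of the 52 members, 51 were kept, 8 were past the fold and higher in *Tip55*Δ/Δ embryos, and 3 were past it and lower. Over all genes kept, 7.05% were past the fold and higher and 5.52% past it and lower, against 15.7% and 5.88% of the members. The share of lower members was thus near that of all genes. Scaling each genotype to its total gave 9 higher and 1 lower members, beside 8.38% and 4.61% of all genes. Removing the trend with GC content gave 8 higher and 1 lower, beside 7.93% and 4.25%. The higher genes were the ligands *Wnt8a*, *Wnt9b*, *Wnt10a* and *Wnt3a*, the receptor *Fzd5*, the agonist *Rspo3* and the inhibitors *Wif1* and *Dkk1*. The lower genes were the ligands *Wnt16* and *Wnt7b* and the inhibitor *Sfrp2*. None of the genes for Axin, APC, beta-catenin or the TCF/LEF factors was past the fold. The median log2 ratio of the members was 0.06, beside −0.0025 over all genes kept, and 28 members were above 0 and 23 below.

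**Figure D1:**
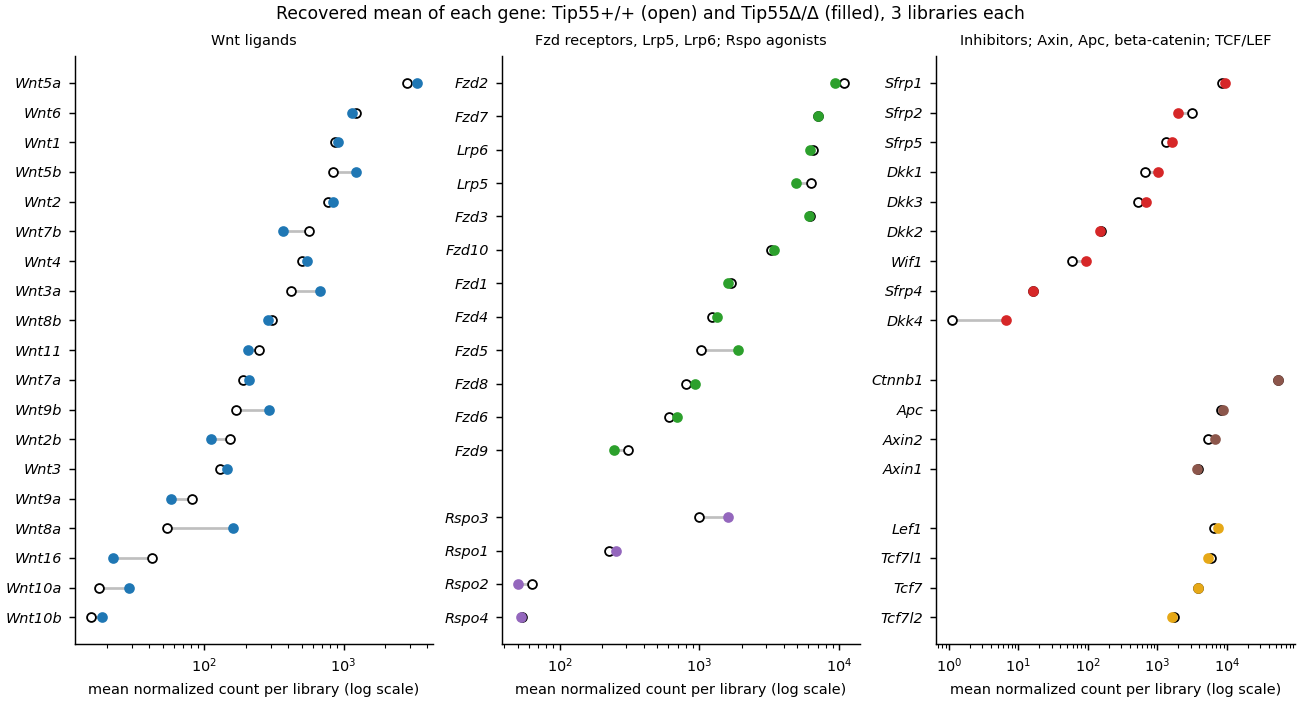
Recovered mean of each of the 52 genes, in normalized counts per library on a log axis, with open circles for Tip55+/+ and filled circles for Tip55Δ/Δ embryos. Colour marks the role of the gene. The widest gaps are at genes of low or middle level such as Wnt8a (54.2 and 160), whereas the circles of Ctnnb1 and Tcf7 cover each other.

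The share of all genes past the fold was smaller at higher levels, so the members were also read against genes of like level. Among genes whose larger mean was between 10 and 100, 22.6% were past the fold and higher, and 2 of the 8 members there (*Wif1* and *Wnt10a*) were. Between 100 and 1000 the share was 6.49%, with 3 of 18 members (*Wnt8a*, *Wnt9b* and *Wnt3a*). Between 1000 and 10000 it was 0.763%, with 3 of 23 members (*Fzd5*, *Rspo3* and *Dkk1*). Because the larger mean places a gene, *Rspo3* (987 in the wildtype) and *Dkk1* (665) were in this band only through their knockout means. So was *Wnt8a* (54.2) in the band from 100 to 1000. For these genes the band is not independent of their being higher, and the shares are a description only. The shares past the fold and lower were 10.8%, 6.95% and 2.44%, with 1 member each (*Wnt16*, *Wnt7b* and *Sfrp2*). At 10000 and above, where the shares were 0.205% and 1.95%, neither of the 2 members (*Ctnnb1* and *Fzd2*) was past the fold. By construction about 5.01% of genes lie above the 95th percentile of the log2 ratio in their band of level and as many below the 5th. Among the members 8 of 51 (15.7%) lay above it, namely *Wnt8a*, *Wnt9b*, *Wnt3a*, *Wnt5b*, *Fzd5*, *Rspo3*, *Dkk1* and *Axin2*, and 1 (1.96%), *Sfrp2*, lay below. *Dkk1* and *Wnt5b* (844 in the wildtype) were ranked between 1000 and 10000 only through their knockout means. Between 100 and 1000, the band of their wildtype means, the 95th percentile was 0.66, above their log2 ratios of 0.61 and 0.55.

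**Figure D2:**
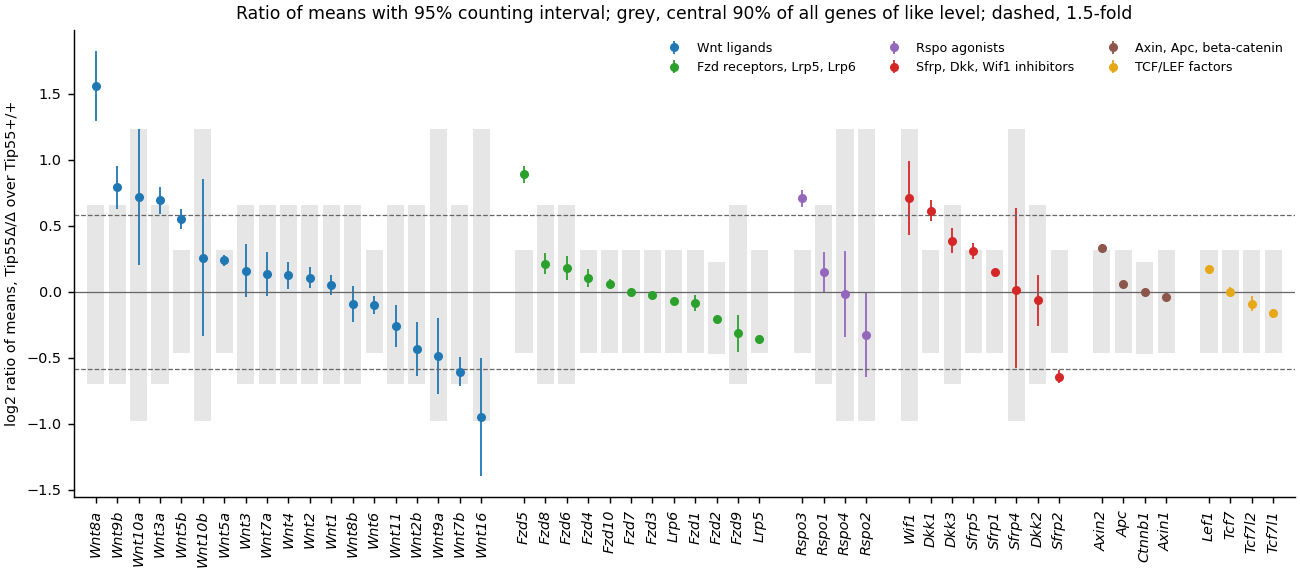
Log2 ratio of the means, Tip55Δ/Δ over Tip55+/+, for the 51 genes kept, by role, with 95% counting intervals. Grey bars span the central 90% of all genes of like level, by the larger mean, and dashed lines mark 1.5-fold. Wnt8a, Fzd5 and Rspo3 stand above their grey bars, Sfrp2 stands below its own, and of the genes of the destruction complex and the TCF/LEF factors only Axin2 stands above its grey bar.

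The 19 ligand genes were all kept. Their means added up to 9462 normalized counts in the wildtype and 10631 in the knockout, and their median log2 ratio was 0.12. Per kb of the longest transcript, the ligands of the highest level in *Tip55*+/+ embryos were *Wnt6*, *Wnt5a* and *Wnt1*. *Wnt6*, a ligand of the surface ectoderm, had 592 and 553 normalized counts per kb in *Tip55*+/+ and *Tip55*Δ/Δ embryos, and means of 1226 and 1145 (ratio 0.934, interval 0.891 to 0.979). *Wnt5a*, which acts mainly outside the beta-catenin branch in axis elongation, had 407 and 481 per kb, and means of 2856 and 3374 (ratio 1.18, interval 1.15 to 1.22). *Wnt1*, a ligand of the midbrain and dorsal neural tube, had 368 and 382 per kb, and means of 875 and 908 (ratio 1.04, interval 0.982 to 1.09). None of these 3 was past the fold, and *Wnt6* took the largest share of the ligand counts per kb in both genotypes, 20.2% and 16.8%.

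*Wnt8a*, a ligand of the primitive streak and tail bud, had the largest ratio among the members kept. The wildtype mean was 54.2 normalized counts and the knockout mean 160 (ratio 2.95, interval 2.46 to 3.53). It lies on chromosome 18, and 99.8% of genes of like level, by its knockout mean, had a smaller ratio. It was the only member kept that was past 2-fold, which 2.42% of all genes kept passed upward and 1.95% downward. *Wnt3a*, a ligand that tail bud cells need to form mesoderm, had means of 420 and 679 (ratio 1.62, interval 1.51 to 1.74). It lies on the minus strand of GRCm38 at chr11:59248033-59290752. *Wnt5b*, likewise a ligand of the tail end of the embryo, was just under the fold, with means of 844 and 1238 (ratio 1.47, interval 1.39 to 1.54). Among genes of like level, by its knockout mean, 99.1% had a smaller ratio than *Wnt5b*. It was past the fold once each genotype was scaled to its total or the GC trend was removed. Its log2 ratios were 0.61 and 0.80 in those settings.

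*Wnt9b*, a ligand of the surface ectoderm and the nephric duct, had means of 169 and 293 (ratio 1.73, interval 1.55 to 1.93) and lies at chr11:103727364-103749821 on the minus strand. *Wnt10a*, at chr1:74791516-74804179 on the plus strand, was a gene of low level, with means of 17.5 and 28.9. Its ratio of 1.64 had a wide interval of 1.15 to 2.36, and 82.0% of genes of like level had a smaller one. With 10 counts added to both means it was no longer past the fold. Of these ectodermal ligands *Wnt9b* lay above the 95th percentile of its band and *Wnt10a* did not.

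The ligands lower in *Tip55*Δ/Δ embryos were *Wnt16* and *Wnt7b*. *Wnt16*, at chr6:22288227-22298522 on the plus strand, had means of 42.3 and 21.95 (ratio 0.519, interval 0.380 to 0.705). *Wnt7b*, a ligand of the nervous system and of the chorion, had means of 563 and 370 (ratio 0.657, interval 0.608 to 0.709) and lies at chr15:85535437-85582473 on the minus strand. Among genes of like level, 5.34% had a smaller ratio than *Wnt16* and 6.53% a smaller ratio than *Wnt7b*, so both lay inside the central 90% of their bands. *Wnt7b* was no longer past the fold with each genotype scaled to its total (log2 ratio −0.55) or with the GC trend removed (−0.38). Its exons share bases with *AU022754*, and the library kit did not keep strand.

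The other 9 ligands had means as follows in *Tip55*+/+ and *Tip55*Δ/Δ embryos. *Wnt2*, known from the allantois, had 777 and 837, and *Wnt4* had 500.0 and 545. *Wnt8b*, a ligand of the forebrain, had 304 and 285, *Wnt11*, which acts in cell movement, had 245 and 205, and *Wnt7a* had 191 and 209. *Wnt2b* had 152 and 112, *Wnt3*, which the primitive streak needs to form, had 129 and 144, *Wnt9a* had 81.3 and 57.9, and *Wnt10b* had 15.3 and 18.3. None of them was past the fold.

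Ligand genes of one subfamily were compared in 7 pairs. *Wnt8a* had a log2 ratio of 1.56 and *Wnt8b* of −0.09, a gap of 1.65. *Wnt9b* was at 0.79 and *Wnt9a* at −0.49, and *Wnt7a* was at 0.14 and *Wnt7b* at −0.61. *Wnt3a* was at 0.69 and *Wnt3* at 0.16. In *Wnt5a* and *Wnt5b* the log2 ratios were 0.24 and 0.55, in *Wnt10a* and *Wnt10b* 0.72 and 0.26, and in *Wnt2* and *Wnt2b* 0.11 and −0.43. The *Wnt3*, *Wnt5* and *Wnt10* pairs lay above 0 with both members, and the *Wnt2*, *Wnt7*, *Wnt8* and *Wnt9* pairs had members on opposite sides of 0. Of the latter, the counting intervals of *Wnt7a* (−0.03 to 0.30) and *Wnt8b* (−0.23 to 0.04) included 0. Of the pairs above 0, those of *Wnt3* (−0.04 to 0.36) and *Wnt10b* (−0.33 to 0.86) did too.

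Some members lie side by side in the genome. Within 100 kb of each other lie 4 pairs of members, all of ligands. *Wnt3a* and *Wnt9a*, 16.2 kb apart on chromosome 11, had log2 ratios of 0.69 and −0.49. *Wnt9b* and *Wnt3*, 24.3 kb apart on the same chromosome, were at 0.79 and 0.16. *Wnt10a* and *Wnt6*, 6.19 kb apart on chromosome 1, were at 0.72 and −0.10, and *Wnt1* and *Wnt10b*, 11.7 kb apart on chromosome 15, at 0.05 and 0.26, each with a counting interval that included 0. In 3 of the 4 pairs 1 gene was past the fold and its neighbour was not. Whether the genes of a pair differ beyond the spread between libraries was not measurable.

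All 12 receptor and coreceptor genes were kept, and their median log2 ratio was −0.01, which turned to 0.05 with each genotype scaled to its total and to 0.06 with the GC trend removed. *Fzd5*, a Frizzled receptor with known roles in the yolk sac, the placenta and the eye field, was the only one past the fold. Its means were 1024.5 and 1900 normalized counts (ratio 1.85, interval 1.78 to 1.94), and 99.9% of genes of like level had a smaller ratio. *Fzd5* lies at chr1:64730558-64737751 on the minus strand. Its exons overlap the gene *Gm38058*, and 16.6% of the 50-base stretches of its transcripts are shared with other genes, so part of its count cannot be assigned to it alone. *Fzd8*, the Frizzled most like it, had means of 807 and 936 and a log2 ratio of 0.21, beside 0.89 for *Fzd5*.

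The receptor genes of the highest level per kb in *Tip55*+/+ embryos were *Fzd2*, *Fzd7* and *Fzd10*. *Fzd2* had 2940 and 2544 normalized counts per kb in *Tip55*+/+ and *Tip55*Δ/Δ embryos, and means of 10771 and 9320 (ratio 0.865, interval 0.851 to 0.879). *Fzd7* had 1545 and 1544 per kb (ratio 0.9998, interval 0.981 to 1.02), with means that rounding leaves uncertain by 7.69%. *Fzd10* had 1004 and 1046 per kb, and means of 3264 and 3398 (ratio 1.04, interval 1.01 to 1.07). *Fzd2* alone held 34.5% and 31.4% of the receptor counts per kb.

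Of the coreceptors, *Lrp5* had means of 6244.5 and 4873 (ratio 0.780, interval 0.764 to 0.797), and *Lrp6* had 6528 and 6221 (ratio 0.953, interval 0.934 to 0.972). Neither was past the fold, and 9.07% of genes of like level had a smaller ratio than *Lrp5*. The means of the remaining Frizzled genes were 6191 and 6102 for *Fzd3*, 1687 and 1591 for *Fzd1*, 1238 and 1331 for *Fzd4*, 605 and 686 for *Fzd6*, and 306 and 246 for *Fzd9*. None of these was past the fold.

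R-spondins are secreted proteins that raise the number of Frizzled receptors at the cell surface. *Rspo3* was the R-spondin gene of the highest level, with 320 and 522 normalized counts per kb in *Tip55*+/+ and *Tip55*Δ/Δ embryos. Its means were 987 and 1611 (ratio 1.63, interval 1.56 to 1.71), and 99.6% of genes of like level, by its knockout mean, had a smaller ratio. It lies at chr10:29452416-29535867 on the minus strand and shares exon bases with *Gm48159*. *Rspo1* had means of 226 and 251 (ratio 1.11, interval 0.9998 to 1.23) and *Rspo4* of 53.9 and 53.2 (ratio 0.987, interval 0.789 to 1.24). *Rspo2* had means of 63.1 and 50.2. Only *Rspo3* was past the fold, and it made up 66.0% of the R-spondin counts per kb in the wildtype and 75.0% in the knockout.

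The secreted inhibitors act outside the cell. SFRP proteins and WIF1 bind Wnt ligands, and DKK1 and its relatives bind the coreceptors. Of the 9 genes, 8 were kept, with a median log2 ratio of 0.23, 2 past the fold and higher and 1 past it and lower. These are 25.0% and 12.5% of the 8, beside 7.05% and 5.52% of all genes kept. *Dkk1*, itself a target of beta-catenin, had means of 665 and 1018 (ratio 1.53, interval 1.45 to 1.62) and lies at chr19:30545863-30549665 on the minus strand. With the GC trend removed its log2 ratio of 0.61 became 0.58, just under the fold. *Wif1*, at chr10:121033960-121100650 on the plus strand, had means of 58.3 and 95.2 (ratio 1.63, interval 1.35 to 1.98), and 81.4% of genes of like level had a smaller ratio.

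*Sfrp2*, at chr3:83766321-83774316 on the plus strand, had the lowest ratio among the 8 SFRP, DKK and WIF1 genes kept. Per kb it had 1563 normalized counts in the wildtype and 1002 in the knockout. Its means were 3131 and 2007 (ratio 0.641, interval 0.620 to 0.662), and 1.81% of genes of like level had a smaller ratio. Its log2 ratio of −0.64 became −0.58 with each genotype scaled to its total and −0.56 with the GC trend removed, both just inside the fold. It shares exon bases with *Gm26771*. *Sfrp1*, its relative and the inhibitor gene of the highest level, had 1910 and 2121 per kb, and means of 8350 and 9274 (ratio 1.11, interval 1.09 to 1.13). *Sfrp5* had 690 and 857 per kb, and means of 1311 and 1628 (ratio 1.24, interval 1.19 to 1.30). In these 3 SFRP genes the share of the inhibitor counts per kb went from 33.5% to 21.4% for *Sfrp2*, from 41.0% to 45.2% for *Sfrp1* and from 14.8% to 18.3% for *Sfrp5*.

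*Dkk3*, which differs in activity from the other DKK proteins, had means of 520 and 680, *Dkk2* of 154 and 147, and *Sfrp4* of 16.1 and 16.3. *Dkk4* was the member not kept, with means of 1.12 and 6.52. None of the first 3 was past the fold.

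**Figure D3:**
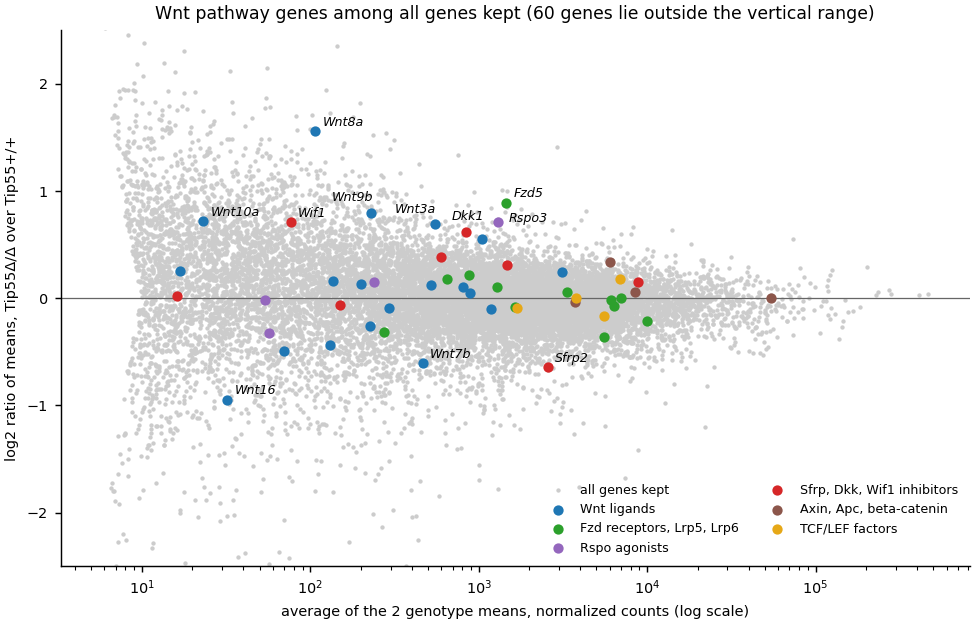
Log2 ratio of the means, Tip55Δ/Δ over Tip55+/+, against the average of both means in normalized counts on a log axis, for all genes kept (grey) and the 51 members kept (coloured by role). The 11 members past the fold are named, and 60 genes lie outside the vertical range. The grey cloud narrows to the right, and Fzd5, Rspo3 and Sfrp2 lie at its edge at levels where few genes differ by 1.5-fold.

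Of the 8 genes that act inside the cell none was past the fold. *Ctnnb1*, the gene of beta-catenin, had 15115 normalized counts per kb in *Tip55*+/+ embryos, the highest level of any member, and a ratio of 0.9997 (interval 0.993 to 1.01). Because the deposited ratios are so near 1, its means of 54762 and 54744 are uncertain by 33.3%. Its exons overlap *Ulk4* and *Mir7090*. *Axin1*, a scaffold of the destruction complex, had 1008 and 982 per kb, and means of 3806 and 3709 (ratio 0.975, interval 0.949 to 1.001). *Apc* had means of 8297 and 8643. *Axin2*, a scaffold that beta-catenin itself induces, had 1246 and 1571 per kb, and means of 5310 and 6692 (ratio 1.26, interval 1.23 to 1.29). *Axin2* was not past the fold, yet 96.1% of genes of like level had a smaller ratio, whereas *Axin1* was near the middle of its band at 49.6%. It shares exon bases with *Gm11670*. The exons of *Fzd6*, *Lef1*, *Tcf7l1*, *Wnt5a* and *Wnt11* also overlap another gene, and their counts may hold reads of it.

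Of the TCF/LEF factors, which carry beta-catenin on DNA, *Tcf7l1*, largely a repressor, had 1934 and 1726 per kb, and means of 5883 and 5250 (ratio 0.893, interval 0.873 to 0.912). *Lef1*, largely an activator, had 1783 and 2014 per kb, and means of 6519 and 7365 (ratio 1.13, interval 1.11 to 1.15). *Tcf7* had 1528 and 1527 per kb, and means of 3775 and 3774 (ratio 0.9996, interval 0.974 to 1.03). *Tcf7l2* had means of 1751 and 1644. None was past the fold, and the median log2 ratio of the 4 was −0.05, turning to 0.01 with each genotype scaled to its total and to 0.06 with the GC trend removed.

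A list of 24 genes that Wnt/beta-catenin signalling is known to induce in the gastrulating and early somite embryo was set beside the members. The list was drawn up with earlier results of these data known, so its share past the fold is a description and no test. It holds 4 members (*Axin2*, *Lef1*, *Tcf7* and *Dkk1*). All 24 were kept, 7 were past the fold and higher (29.2%, against 7.05% of all genes kept), and none was past it and lower. The median log2 ratio was 0.30, with 21 genes above 0. *Mixl1*, a homeobox gene of the primitive streak, had means of 85.2 and 274 (ratio 3.22, interval 2.79 to 3.71). *Msgn1* and *Tbx6*, which specify presomitic mesoderm, had means of 255 and 469 (ratio 1.84, interval 1.68 to 2.01) and of 911 and 1493 (ratio 1.64, interval 1.56 to 1.72). *T*, the gene of Brachyury, had means of 2350 and 3794 (ratio 1.61, interval 1.57 to 1.66).

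Of the caudal homeobox genes, which pattern the trunk and tail, *Cdx1* had means of 1206 and 2063 (ratio 1.71, interval 1.64 to 1.78). *Cdx4* had 2084 and 3422 (ratio 1.64, interval 1.59 to 1.69). Both were past the fold, as was *Dkk1*. The targets of the highest means were not. *Ccnd1*, the gene of cyclin D1, had means of 15729 and 13718 (ratio 0.872, interval 0.861 to 0.884), and *Myc* had 4648.5 and 5723 (ratio 1.23, interval 1.204 to 1.259). With *Lef1* and *Axin2*, given above, these are the 4 targets of the highest means among those inside the fold. Without the 4 members, 6 of 20 targets were past the fold and higher, and the median log2 ratio was again 0.30. Only 3 of the 24 targets, *Ccnd1*, *Sp5* and *Tcf7*, had a log2 ratio below 0, and 1 did with each genotype scaled to its total or with the GC trend removed.

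The list of presomitic mesoderm and tail bud markers (*T*, *Tbx6*, *Msgn1*, *Hes7* and *Cdx2*) shares 4 of its 5 genes with the targets, all but *Hes7*. Its means added up to 6715 in the wildtype and 9770 in the knockout (1.46 times as much), with 5 of 5 genes above a ratio of 1 and 3 past the fold. Ratios of *Wnt8a* and *Wnt3a*, ligands of the same region, were 2.95 and 1.62. The part of tail bud cells in these results was not tested. Markers of other cells also differed. The 7 primitive erythroid markers were all past the fold and lower, with summed means of 105609 and 7643 (ratio 0.0724). Of 8 markers of visceral endoderm and yolk sac 6 were past the fold and lower, with summed means of 110502 and 64440 (ratio 0.583). The sums of 4 cardiac, 5 neural and 3 neural crest markers had ratios of 1.10, 1.03 and 0.960, with members on both sides. *Tnnt2* (ratio 1.57) was past the fold and higher beside *Nkx2-5* at 0.695, and *Neurog2* (0.521) was past it and lower beside *Pax6* at 1.35. No neural crest marker was past the fold. *Prl8a2*, a gene of the maternal decidua, had means of 503 and 27.6 (ratio 0.0548, interval 0.0435 to 0.0686). The other 4 genes listed as decidual markers were inside the fold. Whether their RNA came from decidua or from the embryo itself cannot be told apart, so they do not show that decidua was equal. Of the 5 trophoblast markers kept, 2 were past the fold and lower and 1 past it and higher. The part of these cells in the Wnt values was not tested.

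**Figure D4:**
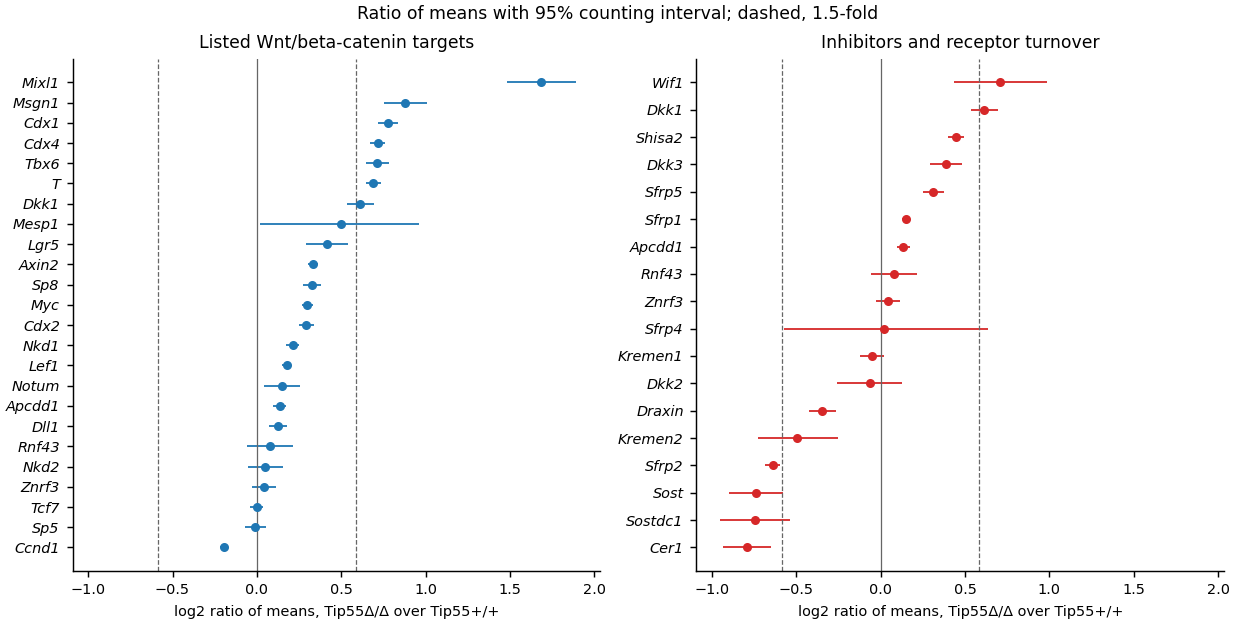
Log2 ratio of the means, Tip55Δ/Δ over Tip55+/+, with 95% counting intervals, for the 24 listed targets (left) and for the 18 genes kept of secreted inhibitors and receptor turnover, members and others (right). Dashed lines mark 1.5-fold. Of the targets 7 lie beyond the right line and none beyond the left, while the inhibitors reach past both lines, from Cer1 to Wif1.

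Of 52 further pathway genes, none was past the fold and higher and 3 were past it and lower (5.77%, near the 5.52% of all genes kept). All 3 encode secreted inhibitors that are no SFRP or DKK protein. *Cer1*, a secreted blocker of Nodal, BMP and Wnt signals, had means of 361 and 208 (ratio 0.577, interval 0.522 to 0.637). *Sostdc1* had 175 and 105 (ratio 0.596, interval 0.517 to 0.688) and *Sost* 294 and 176 (ratio 0.599, interval 0.537 to 0.668). With *Sfrp2*, 4 genes of secreted inhibitors were thus lower past the fold, and *Dkk1* and *Wif1* were higher. They come from 8 SFRP, DKK and WIF1 genes kept and 10 genes of receptor turnover and further inhibitors. Over all genes kept the shares were 5.52% lower and 7.05% higher. Among genes of like level, 6.95% were past the fold and lower for *Cer1*, *Sostdc1* and *Sost*, and 2.44% for *Sfrp2*. The shares past it and higher were 22.6% for *Wif1* and 0.763% for *Dkk1*, which is placed there by its knockout mean. With the GC trend removed *Sost* (log2 ratio −0.58), *Sfrp2* and *Dkk1* were no longer past the fold, which left *Cer1*, *Sostdc1* and *Wif1*. *Sfrp2* also lost the call with each genotype scaled to its total. Which cells the *Cer1* RNA came from is not known, and the part of any cell type in its lower value was not tested.

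Of the further genes with the highest level by the larger of both means, *Tle3* and *Csnk1a1*, a corepressor and a kinase of the destruction complex, had means of 12681 and 11047 and of 12545 and 11100.0. *Ptk7*, a Wnt coreceptor, had 11358 and 10969, and *Wls*, which carries Wnt proteins to the cell surface, had 8450.5 and 10198 (ratio 1.21, interval 1.19 to 1.23). Among the 24 genes that act in the cytoplasm and nucleus 20 were below 0, with a median log2 ratio of −0.17. With each genotype scaled to its total 19 were below 0 and the median was −0.11, and with the GC trend removed 15 were and the median was −0.04. The 3 genes of ligand secretion (*Porcn*, *Wls* and *Notum*) were above 0, with a median of 0.27. The whole list had a median of −0.12, with 17 genes above 0 and 35 below, which became −0.06 (23 and 29) with scaling to totals and −0.01 (25 and 27) with the GC trend removed. Of this list 7 genes are also listed as targets.

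Promoters were searched for the motif that TCF/LEF factors bind, spelled CTTTGAA or CTTTGAT on either strand. RefSeq promoter windows, from 250 bases before to 50 after a start on GRCm38.p6, were matched for 34 of the 52 members. They held the motif at 3 members (8.82%), beside 9.88% of all genes with a window. Of the targets 16 had a window and 6 of them (37.5%) held it. The shares compare unequal numbers of genes, and a match is a description of the letters. The matches of *Dkk1*, *Wnt5b* and *Wnt11* among the members are shown as 30 bases, with 1 match each of the targets *T*, *Msgn1* and *Sp5*, in the direction of the gene, with the motif in capitals, TTCAAAG and ATCAAAG being its forms on the other strand. *Msgn1* has a further match 203 bases before its start, and the targets *Mesp1* and *Sp8*, not shown, hold the motif as well.
Dkk1: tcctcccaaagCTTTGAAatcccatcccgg
Wnt5b: agtaagtctctCTTTGATctgctccctgtc
Wnt11: gacgtgggcggATCAAAGcgacggtccgcg
T: ctgctcggtacTTCAAAGggtgtcccgccc
Msgn1: cttggttcttcCTTTGAActccctccacca
Sp5: ggcaaggccccCTTTGATcaggaaaatcca

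The *Dkk1* stretch lies at chr19:30549595-30549624 on the minus strand with its motif 117 bases before the RefSeq start, inside the longer *Dkk1* gene of GENCODE. That of *Wnt5b* lies at chr6:119449439-119449468 on the minus strand, 71 bases before 1 of its starts and inside the gene body of its longest form. That of *Wnt11* lies at chr7:98835050-98835079 on the plus strand, 51 bases before the start. The stretches of the targets lie at chr17:8434177-8434206 (plus strand), chr12:11209073-11209102 (minus strand) and chr2:70474808-70474837 (plus strand). The genes with a match did not share a ratio. *Dkk1*, *T* and *Msgn1* were past the fold and higher, *Wnt5b* was just under it, *Sp5* had means of 1483 and 1474, and *Wnt11* had 245 and 205. The windows of *Wnt3a*, *Wnt9b* and *Fzd5* did not hold these letters.

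Over all genes kept the log2 ratio went with the GC content of the longest transcript, with Spearman's rho of −0.30 across 15768 genes. Across the 51 members, which lay between 40.3% and 63.8% GC, rho was −0.07. These are correlations across genes of the same 6 libraries and no p-value is given. With the trend removed the log2 ratio was 1.68 for *Wnt8a*, 0.96 for *Fzd5*, 0.94 for *Wnt9b*, 0.85 for *Wnt3a*, 0.65 for *Rspo3* and −1.06 for *Wnt16*, all still past the fold. The ligand median went from 0.12 to 0.23.

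**Figure D5:**
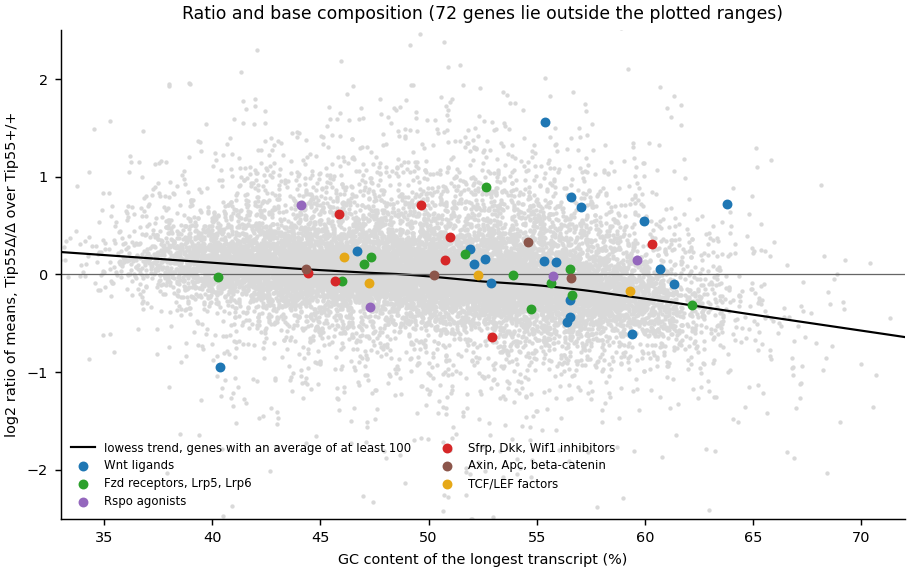
Log2 ratio of the means, Tip55Δ/Δ over Tip55+/+, against the GC content of the longest transcript in percent, for all genes kept (grey) and the 51 members kept (coloured by role), with the smoothed trend over genes with an average of at least 100 as a black line. The trend slopes down, 5 of the 8 members past the fold and higher lie to the right of 50% GC, and 72 genes lie outside the plotted ranges.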

How the data were processed

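RNA was extracted from E8.5 embryos, and mRNA enrichment, non-stranded library preparation and BGI-seq sequencing followed. Reads were mapped to mm10 and quantified with RSEM, and the genotypes were compared with EBSeq, for which no version is given in the sources used here. The deposited table gives, per gene symbol, 2 linear ratio values made by the authors (knockout over wildtype fold changes) and posterior probabilities, which hold the study's own calls and were not used.

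One ratio adds 0.01 to both means and the other an offset, estimated as 0.514 from 544 genes at 0 in wildtype and 397 in knockout. Solving both gave the mean normalized count of each genotype, and the ratios themselves were not printed. Means of 8 genes had a rounding error over 5%. Without those 8 genes, the recovered means summed to 49138051 (wildtype) and 47211544 (knockout) normalized counts. Depth per library is unknown. The solving was checked on simulated data.

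Ratios of means were given with Clopper-Pearson intervals (95%, scipy 1.17.1). The fold was 1.5 and the minimum mean 10. Alternatives were scaling to totals, centring on the median, removal of a lowess trend with GC content (span 0.3, 12321 genes with an average of at least 100, statsmodels 0.14.6), other offsets, 10 added counts, folds of 1.25 and 2, other minimum means, and leaving out overlapping genes. Levels per kb used the longest GENCODE vM21 transcript. Overlaps came from the same annotation, and promoters from RefSeq on GRCm38.p6. Each member past the fold and the 3 of highest level per kb in each role were given with full values, the rest with both means, and of the other lists those past the fold and up to 4 of the highest means. The ligand subfamilies, neighbouring genes and bands of level were chosen after values were seen, and *Wnt5b*, *Sp5*, *Tcf7* (as a target) and *Prl8a2* were named then. Members and lists were chosen with earlier results of these data known.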

Additional observations from a re-analysis of the deposited data

How the results depend on the processing

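No paired analysis was possible because the table holds no value for a single library, and leaving out a replicate was not possible for the same reason. Counts of members past the fold were 8 higher and 3 lower. The lower count was 1 with each genotype scaled to its total, with the GC trend removed, and without members that share exon bases, or any bases, with another gene. Of the 11 members past the fold, 9 kept the call when scaled to totals, where *Sfrp2* and *Wnt7b* lost it, and 8 with the GC trend removed, where *Dkk1* lost it too. *Wnt5b* gained it in both. Adding 10 counts lost *Wnt10a*, and a minimum mean of 100 lost *Wif1*, *Wnt10a* and *Wnt16*. Leaving out overlapping genes drops *Fzd5*, *Rspo3*, *Sfrp2* and *Wnt7b* by construction. With a lower fold, which 14.2% of all genes passed upward and 13.7% downward, the counts were 11 higher and 7 lower members, 11 higher targets, and 3 higher and 12 lower further pathway genes. At 2-fold, which 2.42% of all genes passed upward and 1.95% downward, they were 1 higher and 0 lower members, 1 higher target and 0 lower further genes.

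Median log2 ratios of the receptors, the destruction complex and the TCF/LEF factors became 0.0469, 0.0866 and 0.0119 with scaling to totals, and 0.0623, 0.0662 and 0.0646 with the GC trend removed, where that of the ligands became 0.2331. The R-spondin median was 0.4292 with a minimum mean of 100, which leaves 2 genes, and −0.3288 without genes that overlap another, which leaves *Rspo2*. The receptor median was −0.0452 without genes whose exons overlap another and −0.0694 without any overlap, and that of the destruction complex was 0.0110 in the former. The cause of the shifts was not tested. Of the 51 members kept, 26 log2 ratios moved by more than their counting error with the GC trend removed and 18 with scaling to totals, and none past the fold changed direction in any setting run. The comparison of protein sequences between related members was not run, since no protein table was used here.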
